A study of Homo sapiens with 6 samples.

Results

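The TRiC/CCT chaperonin was followed through its 9 genes in a pooled CRISPR knockout screen. They were selected by symbol, and they were TCP1, CCT2, CCT3, CCT4, CCT5, CCT6A, CCT7 and CCT8, which encode the 8 obligate subunits, and CCT6B, a testis paralog of CCT6A that served as the contrast. They are 9 of 18888 protein-coding symbols in the count table, and 33 of its 107237 sgRNAs target them. The screen was run in Cas9-expressing MDA-MB-231, an established human triple-negative breast cancer cell line with high EGFR, transduced with the GeCKO v2 knockout library at a low multiplicity of infection and selected with puromycin for 7 days. The pool was then given vehicle (DMSO) or 10 µM erlotinib, an EGFR tyrosine kinase inhibitor, for 7 days, and sgRNAs were amplified from genomic DNA of the residual cells. Both conditions therefore share Cas9, the sgRNA library and the puromycin selection. There were 3 libraries per condition. The labels do not say whether these came from separate cultures, so p-values measure the spread between libraries, which may be technical. In the column names each condition has its own Rev tag, which may be a reverse primer, so condition and tag cannot be told apart. No library from before the treatment was analysed here, and sgRNA counts carry no expression markers by which the cell line could be checked.

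TRiC (also named CCT) is a cytosolic ATP-driven machine of paired, stacked rings. Every ring position is held by a different, related subunit, and a lid closes over a captured protein while it folds. Actin and the tubulins depend on it, as do cell cycle regulators such as CDC20 and many WD40-repeat proteins. Prefoldin hands it unfolded actin and tubulin, and phosducin-like proteins help it to fold signaling proteins. The ring subunits are needed for growth in most human cells, whereas CCT6B is expressed mainly in the testis.

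The sequences of 4 genes are shown, because their sgRNAs carry the contrasts described below. They are the sgRNAs of CCT5, of which 1 was found in every DMSO library, of CCT3, of which none was found, and of the paralogs CCT6A and CCT6B. Sequences are 20 bases long, 5′ to 3′, as the authors' count table lists them. Capitals mark bases where an sgRNA overlaps another of the same gene on the opposite strand, end to end and by at least 8 bases.
CCT5 sgRNA 1: agcccttcagaaatacgaaa
CCT5 sgRNA 2: agttagccaAGAGGCGGATA
CCT5 sgRNA 3: cccttacctTATCCGCCTCT
CCT5 sgRNA 4: gtttcattagtctcatataa
CCT3 sgRNA 1: AGTCCATGATCGAAATTAGC
CCT3 sgRNA 2: gcctaccttcatcatggact
CCT3 sgRNA 3: GCTAATTTCGATCATGGACT
CCT6A sgRNA 1: caatgtgctgcttcacgaaa
CCT6A sgRNA 2: CCTACTTCTGCTGCCAccat
CCT6A sgRNA 3: cctttaaacaggctcgtttc
CCT6A sgRNA 4: TGGCAGCAGAAGTAGGcgta
CCT6A sgRNA 5: ttgctctgcgcagagctaaa
CCT6B sgRNA 1: aactaaagttcatgctgaac
CCT6B sgRNA 2: agatctcactgtagattgct
CCT6B sgRNA 3: caccctagaataatagctga
CCT6B sgRNA 4: cagagcaaaaagaagaaata
CCT6B sgRNA 5: ttagattctcttgcaaaaca
CCT6B sgRNA 6: ttcagactctctcttgcttg

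CCT3 sgRNA 1 and CCT3 sgRNA 3 are exact reverse complements, so they address the same 20 bases from opposite strands. CCT5 sgRNA 2 and sgRNA 3 overlap by 11 bases, and CCT6A sgRNA 2 and sgRNA 4 overlap by 16 bases. These were the 3 pairs of sgRNAs of the same member gene that overlap end to end by at least 8 bases. The sgRNAs of such a pair are not independent tests of their gene. CCT3 sgRNA 2 is not such a pair with either of the others, but a run of 10 bases at its 3′ end is the same as in sgRNA 3 and, on the opposite strand, in sgRNA 1, so the 3 CCT3 sgRNAs are related in sequence. No member sgRNA was listed under a second symbol. Across the 30 pairs of a CCT6A and a CCT6B sgRNA the longest shared run was 8 bases, so the paralogs were read by different sequences.

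The obligate subunits had few sgRNAs in the count table. The library was designed with 6 sgRNAs per gene, according to the labels, and the table listed 2 for TCP1 and CCT2, 3 for CCT3, CCT4 and CCT7, 4 for CCT5, and 5 for CCT6A and CCT8. CCT6B, the testis paralog, was the only chaperonin member with all 6. At most 3 sgRNAs were listed for 5 of the 8 obligate subunits (62.5%), against 908 of 18888 protein-coding genes (4.81%). Cytosolic ribosomal proteins, like the chaperonin, are needed by nearly all dividing cells. Their class was taken as all symbols starting with RPL or RPS and a digit. Other genes whose symbols start this way were not removed, so the class may be mixed. It had at most 3 listed for 37 of 92 genes (40.2%). The olfactory receptors, which epithelial tumor cells are not known to need, had at most 3 for 11 of 372 genes (2.96%). None of the obligate subunits had 6 listed, compared with 53.5% of protein-coding genes, 14.1% of ribosomal protein genes and 60.5% of olfactory receptor genes. The median number listed was 3 for the obligate subunits, 4 for ribosomal proteins and 6 for both protein-coding genes and olfactory receptors. This comparison was noticed after the values were seen and is given without a test. sgRNAs not in the table were not analysed here, and why they are not listed was not tested.

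**Figure D1:**
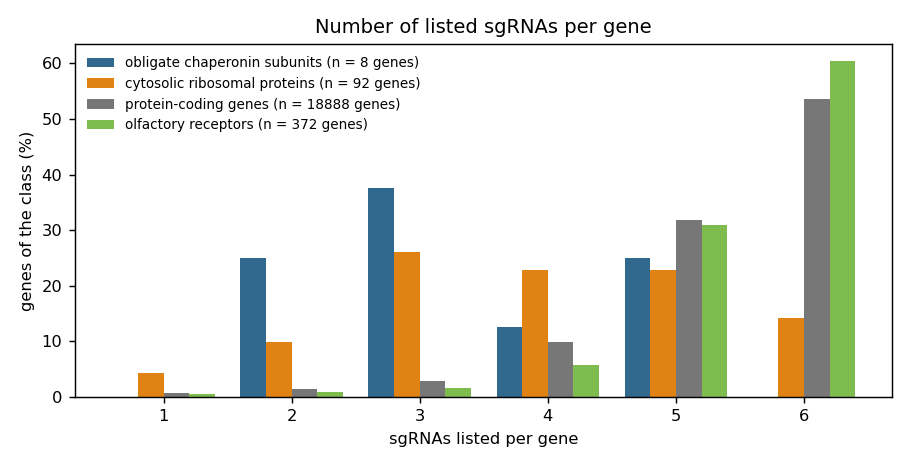
Share of genes (%, vertical axis) by the number of sgRNAs listed per gene (horizontal axis). Classes are the 8 obligate chaperonin subunits, 92 genes classed by symbol as cytosolic ribosomal proteins, 18888 protein-coding genes and 372 olfactory receptors. The chaperonin bars lie at 2 to 5 sgRNAs with none at 6, where protein-coding genes and olfactory receptors have their highest bars.

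Some of the listed sgRNAs also had no count. Of the 27 sgRNAs for obligate subunits, 14 had a count in at least 1 DMSO library (51.9%, 95% Wilson interval 34.0 to 69.3%). CCT6B had 4 of 6 (66.7%, 30.0 to 90.3%). The share was 69.0% (68.7 to 69.3%) over protein-coding genes, which lies inside the CCT6B interval and just inside the upper end of the obligate one, and 56.2% (51.1 to 61.3%) over ribosomal protein genes. These intervals cover counting error only, and sgRNAs of 1 gene share their target. By subunit, both TCP1 sgRNAs were found, 1 of 2 for CCT2, 0 of 3 for CCT3, 1 of 3 for CCT4, 1 of 4 for CCT5, 4 of 5 for CCT6A, 2 of 3 for CCT7 and 3 of 5 for CCT8. Whatever the number listed, an obligate subunit had a mean of 1.75 found sgRNAs per gene, against 3.67 for protein-coding genes, 2.21 for ribosomal proteins and 3.94 for olfactory receptors. The number listed enters these means. At most 2 were found for 6 of the 8 obligate subunits (75%), compared with 17.8% of protein-coding genes and 65.2% of ribosomal protein genes.

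**Figure D2:**
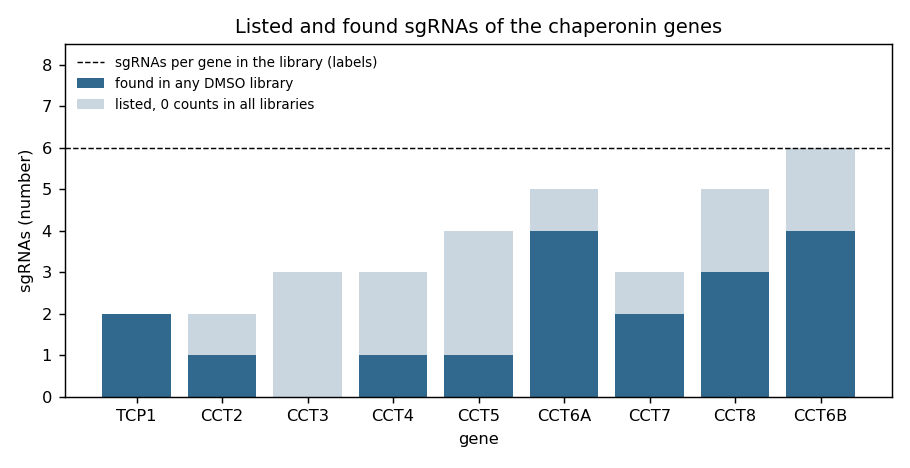
Number of sgRNAs (vertical axis) for each of the 9 chaperonin genes (horizontal axis), with dark bars for sgRNAs found in any DMSO library and pale bars for listed sgRNAs with 0 counts in all 6 libraries. The dashed line marks the 6 sgRNAs per gene of the library, which only CCT6B reaches, and CCT3 has no dark bar.

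Set against genes with the same number of listed sgRNAs, the subunits spread widely. CCT3, whose product is the gamma subunit, had none found, as did 6.75% of the 533 protein-coding genes with 3 listed. CCT5, which encodes the epsilon subunit, had 1 of 4 found, and 11.3% of 1874 genes with 4 listed had no more than that. For CCT4, the delta subunit gene, 34.3% of genes with 3 listed had no more found. CCT6A, encoding the zeta subunit, had 4 of 5 found, and 84.0% of 5998 genes with 5 listed had no more. On the same measure CCT8 was placed at 49.8%, CCT2 at 62.6% of 254 genes with 2 listed, and CCT7 at 74.9%. CCT6B was placed at 58.3% of 10108 genes with 6 listed. TCP1, the gene of the alpha subunit, was placed at 100%, since both of its listed sgRNAs were found. This is a ceiling that any gene with all of its listed sgRNAs found reaches.

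In single DMSO libraries the obligate sgRNAs were found 7, 3 and 7 times of 27 in replicates 1 to 3. These shares were 25.9%, 11.1% and 25.9% (21.0% ± 8.55, SD, n = 3), whereas protein-coding genes had 39.1%, 33.4% and 34.5% (35.7% ± 3.02). The obligate share minus the protein-coding share was -13.2, -22.3 and -8.59 percentage points (-14.7 ± 7.00), so it was the lower one in all 3 libraries. Ribosomal proteins lay between them, with 28.5%, 24.9% and 29.1% (27.5% ± 2.26), and the obligate range overlapped theirs. CCT6B sgRNAs were found 1, 3 and 2 times of 6, which is 16.7%, 50.0% and 33.3% (33.3% ± 16.7), so its range overlapped that of the obligate subunits too. Of the 18 member sgRNAs with a count, 14 had it in a single DMSO library, 3 in a pair of libraries, and 1 in all 3. Over the found protein-coding sgRNAs, 55.7% were in a single DMSO library and 10.9% in all 3.

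**Figure D3:**
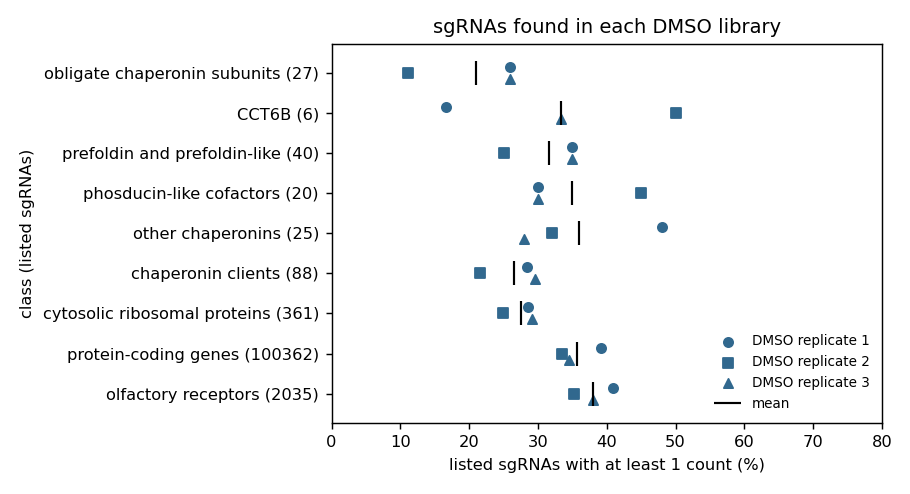
Share of listed sgRNAs with at least 1 count (%, horizontal axis) in each of the 3 DMSO libraries (symbols) with their mean (vertical line), by class (vertical axis) with the number of listed sgRNAs in parentheses. The obligate chaperonin subunits lie at 11.1 to 25.9%, below the 33.4 to 39.1% of protein-coding genes, and the smaller classes spread more widely.

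Among the subunits that bind ATP tightly (CCT2, CCT4 and CCT5), reads came mostly from 1 sgRNA. CCT5 had 282, 208 and 47 counts in DMSO replicates 1 to 3, all from CCT5 sgRNA 3, which gave 66.1, 94.3 and 29.8 CPM (counts scaled to a common library total). CCT5 sgRNA 2, which overlaps it on the opposite strand, had 0 counts in every library, as had sgRNA 1 and sgRNA 4. The abundant sgRNA held 537 of the 1170 DMSO counts of the obligate subunits (45.9%), and 46.3%, 68.6% and 18.2% of them in the single libraries. Its mean CPM was higher than that of 99.7% of protein-coding sgRNAs. CCT2, encoding the beta subunit, had 68, 0 and 0 counts (15.9, 0 and 0 CPM). CCT4 had 0, 0 and 45 counts (0, 0 and 28.6 CPM). CCT5 was thus the only member of this group with reads in more than 1 DMSO library.

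Among CCT3, CCT6A and CCT8, the subunits that bind ATP weakly, CCT3 had 0 counts for each of its sgRNAs in all 6 libraries. A count of 0 allows up to 3 counts per library, or 0.704 to 1.91 CPM in DMSO. CCT6A had 105, 0 and 136 counts (24.6, 0 and 86.4 CPM). They came from sgRNA 1 with 37 counts and sgRNA 3 with 68 in replicate 1, and from sgRNA 2 with 41, sgRNA 3 with 2 and sgRNA 5 with 93 in replicate 3. The partner of sgRNA 2 on the opposite strand, sgRNA 4, had 0 counts throughout. CCT8, encoding the theta subunit, had 94, 0 and 16 counts (22.0, 0 and 10.2 CPM), of which 92 in replicate 1 belonged to a single sgRNA. CCT6A and CCT8 were thus both empty in DMSO replicate 2.

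TCP1 and CCT7 had low levels as well. TCP1 had 0, 68 and 14 counts (0, 30.8 and 8.89 CPM), from a different sgRNA in each library with reads. CCT7, the eta subunit gene, had 60, 27 and 0 counts (14.1, 12.2 and 0 CPM), again from a different sgRNA each time. For scale, a protein-coding sgRNA with a count had a median of 87, 49 and 31 counts in DMSO replicates 1 to 3.

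CCT6B had 79, 108 and 157 counts (18.5, 49.0 and 99.7 CPM) and, with CCT5, was 1 of 2 members with reads in every DMSO library. In contrast to CCT5, its reads were spread over 4 sgRNAs. Replicate 1 held 79 counts of sgRNA 6. Replicate 2 held 62 counts of sgRNA 1, 15 of sgRNA 5 and 31 of sgRNA 6, and replicate 3 held 105 of sgRNA 2 and 52 of sgRNA 5. None of its sgRNAs was in all 3 libraries.

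By mean DMSO level per gene the order was CCT5 (63.4 ± 32.3 CPM, SD, n = 3), CCT6B (55.7 ± 41.0), CCT6A (37.0 ± 44.5), TCP1 (13.2 ± 15.9), CCT8 (10.7 ± 11.0), CCT4 (9.53 ± 16.5), CCT7 (8.77 ± 7.65), CCT2 (5.32 ± 9.21) and CCT3 at 0. No neighbors in this order differed by more than the larger of their SDs. The number of listed sgRNAs enters these sums. Against protein-coding genes, CCT5 lay above 72.8% of them, CCT6B above 64.3% and CCT6A above 37.4%. TCP1, CCT8, CCT4, CCT7 and CCT2 lay above only 2.42 to 7.52% of protein-coding genes by these sums. The median gene level was 10.1 CPM for the obligate subunits, 21.9 CPM for ribosomal proteins, 45.4 CPM for protein-coding genes and 51.2 CPM for olfactory receptors. Ranked instead by CPM per listed sgRNA, CCT5 lay above 89.9% of protein-coding genes, CCT6B above 56.7%, CCT6A above 40.7% and TCP1 above 34.1%. CCT8, CCT4, CCT7 and CCT2 lay above 4.92 to 9.54% on that measure.

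**Figure D4:**
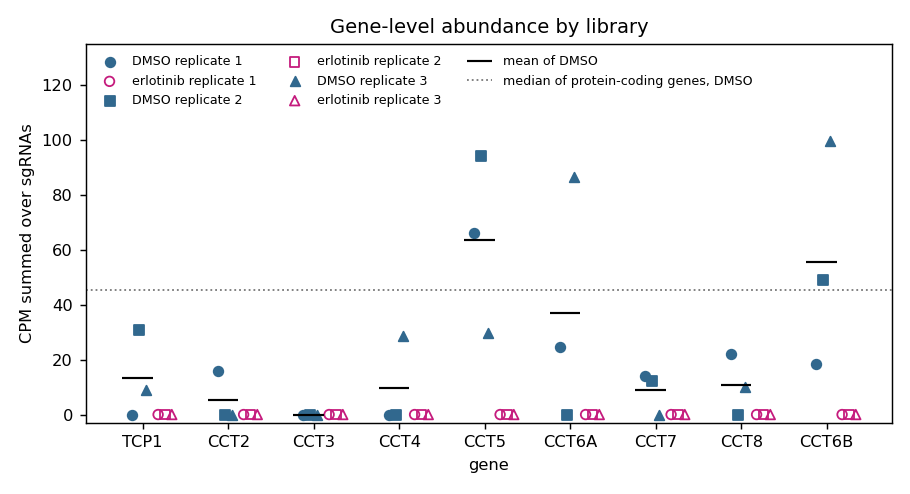
CPM summed over the sgRNAs of each chaperonin gene (vertical axis) in the 3 DMSO libraries (filled symbols) and the 3 erlotinib libraries (open symbols), with the DMSO mean as a bar and the DMSO median of protein-coding genes, 45.4 CPM, as a dotted line. All erlotinib symbols lie at 0, and CCT5 and CCT6B have DMSO means above the dotted line.

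Per listed sgRNA, which takes the unequal numbers into account, the obligate subunits together had 5.29, 5.09 and 6.07 CPM in DMSO replicates 1 to 3 (5.48 ± 0.518). CCT6B had 3.09, 8.16 and 16.6 CPM (9.29 ± 6.83), and protein-coding genes had a mean of 9.26 CPM. The CCT6B level was 0.584, 1.60 and 2.74 times the obligate one, so it was lower in 1 library and higher in the other two. The mean log2 ratio of the obligate subunits to CCT6B was -0.45 ± 1.13, with p = 0.75 in an exact two-sided paired permutation test, whose smallest possible p is 0.25. With 3 libraries this test could not have passed 0.05 at any difference, so only the values are given. Without CCT5 sgRNA 3, an alternative added after the data were seen, the obligate mean fell to 3.25 CPM.

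The member sgRNAs had a GC content of 20 to 60%. Its median was 45% for those found in DMSO and 40% for those not found, while both medians were 50% over protein-coding sgRNAs. The median was 45% for obligate sgRNAs and 37.5% for CCT6B. The part of GC content in these levels was not tested.

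After erlotinib none of the 33 member sgRNAs had a count in any of the 3 libraries. A count of 0 of 33 allows a share of up to 9.09%, and 0 of 27 for the obligate subunits allows up to 11.1%. The share over protein-coding sgRNAs was 5.34% in any erlotinib library, which lies under both limits, so a lower share for the chaperonin was not detectable at this number of sgRNAs. All 9 genes were at 0 in all 3 erlotinib libraries, and so were 75.1% of protein-coding genes. The obligate share of 21.0% in DMSO and 0% in erlotinib gave p = 0.1 in an exact two-sided permutation test over libraries, the smallest p that 3 against 3 allows. Over protein-coding genes the mean share per library was 35.7% in DMSO and 1.95% in erlotinib. Nothing particular to the chaperonin is therefore read from this p. For CCT5 the DMSO mean was at least 46.7-fold higher than a floor of 3 counts per erlotinib library, averaged as CPM. The same bound was at least 41.1-fold for CCT6B and at least 27.3-fold for CCT6A. It was at least 3.92-fold for CCT2, 6.46-fold for CCT7, 7.02-fold for CCT4, 7.91-fold for CCT8 and 9.75-fold for TCP1. These bounds use the DMSO mean and do not cover its spread. CCT2 (5.32 ± 9.21 CPM) and CCT4 (9.53 ± 16.5 CPM) had reads in 1 DMSO library only, so theirs hold for the mean alone. For scale, the median DMSO level of protein-coding genes was 45.4 CPM, above that of CCT6A (37.0 CPM) and below those of CCT6B and CCT5. CCT3, at 0 in both conditions, has no fold.

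No single member sgRNA passed adjustment in the reported fit, though some did under another test or filter. In edgeR's quasi-likelihood test 18 of the 33 member sgRNAs were tested, and 0 were depleted at an adjusted p under 0.05, as were 0% of the 74555 sgRNAs tested. CCT5 sgRNA 3 had the smallest adjusted p of the members, 0.0998. At an unadjusted p under 0.05, 3 member sgRNAs were depleted, beside 31.2% of all tested sgRNAs. Besides CCT5 sgRNA 3 these were CCT6B sgRNA 2 (adjusted p = 0.115) and CCT6A sgRNA 5 (adjusted p = 0.130). The likelihood ratio test called 0 members after adjustment and 3 before it, where 36.6% of all sgRNAs were depleted. DESeq2's Wald test called 3 after adjustment, 1 each for CCT5, CCT6B and TCP1, which is 3 of 18 beside 17.6% of all sgRNAs. The called CCT6B and TCP1 sgRNAs each had counts in 1 DMSO library only. That test gave no adjusted p for CCT6B sgRNA 2, CCT6A sgRNA 5, CCT8 sgRNA 1 and CCT8 sgRNA 3. A member sgRNA entered the test only through its DMSO counts, since all erlotinib counts were 0, so the direction was fixed by the filter.

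With counts summed per gene, 8 of the 9 members were tested, and CCT5 (adjusted p = 0.00385), CCT6B (adjusted p = 0.00386) and CCT6A (adjusted p = 0.0328) passed the threshold as depleted in edgeR's quasi-likelihood test. Of all 20409 genes and microRNAs tested, 69.2% did so. Here too a member entered only through its DMSO counts, so the direction was fixed by the filter and nothing particular to the chaperonin is read from these calls. The 3 called members were those with the highest DMSO levels. With the replicate number added to this test as a block, 0 members were called, with a smallest adjusted p of 0.173. Then 0 of all genes and microRNAs were called either. TCP1 (0.0626), CCT8 (0.0634), CCT7 (0.0680), CCT4 (0.115) and CCT2 (0.121) had adjusted p above 0.05, and CCT3 had no count to test. CCT6A was no longer called without DMSO replicate 1 (adjusted p = 0.0774) or without DMSO replicate 3 (adjusted p = 0.122). TCP1 was called without DMSO replicate 1 (adjusted p = 0.0325) and CCT8 without DMSO replicate 2 (adjusted p = 0.0406). Without DMSO replicates 1, 2 and 3 in turn, 56.6%, 59.2% and 58.4% of all genes and microRNAs were depleted. The likelihood ratio test called 6 of the 8 members, adding CCT7, CCT8 and TCP1, beside 75.7% of all genes and microRNAs. The call of CCT5 rests on 1 sgRNA.

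Prefoldin and the prefoldin-like proteins had 26 of 40 listed sgRNAs found in DMSO, and shares of 35%, 25% and 35% in the single libraries (31.7% ± 5.77). PFDN4, a prefoldin subunit, had 5 of 5 found, whereas UXT, a prefoldin-like protein, had 0 of 3 and PDRG1 had 1 of 2. At most 3 sgRNAs were listed for 4 of the 9 genes. In the gene-level test 6 of the 8 tested genes were depleted, PFDN4 among them (adjusted p = 0.00385, edgeR), beside 69.2% of all genes and microRNAs. The phosducin-like proteins had 13 of 20 found, with 5 of 5 for PDCL2, a germ cell member of the family, and 0 of 4 for TXNDC9. Their shares in the single libraries were 30%, 45% and 30% (35.0% ± 8.66), and the 3 genes tested of 4 were depleted, beside the same 69.2%.

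Other chaperonins and chaperonin-like proteins had 19 of 25 sgRNAs found, with shares of 48%, 32% and 28% (36.0% ± 10.6). MKKS and BBS10, which act with the chaperonin in building the ciliary BBSome complex, had 6 of 6 found. HSPE1, the co-chaperonin of mitochondria, had 0 of 1 and CCT8L2, a CCT8-like gene, had 1 of 4. HSPD1, the mitochondrial chaperonin itself, had 2 of 3 found in DMSO and 1, 726 and 0 counts in erlotinib replicates 1 to 3. These erlotinib counts came from 1 sgRNA. Since 75.1% of protein-coding genes had no erlotinib count, no contrast with the TRiC subunits is read from them. In this list 3 of the 5 tested genes were depleted, against 69.2% of all genes and microRNAs, and HSPD1 was not (adjusted p = 0.875, edgeR).

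The proteins that the chaperonin folds had 52 of 88 sgRNAs found, and shares of 28.4%, 21.6% and 29.5% (26.5% ± 4.30). MLST8, a WD40-repeat partner of MTOR, had 5 of 5 found, and the G protein subunit GNB1, the transcription factor STAT3 and the telomerase factor WRAP53 had 5 of 6 each. No sgRNA was found in DMSO for ACTB (beta-actin) of 3, CDC20 (an activator of the anaphase-promoting complex) of 2 and TUBG1 (gamma-tubulin) of 3. CCT3 had none in DMSO either but, unlike TUBG1, had none after erlotinib. Of the 19 clients 14 (73.7%) had no reads after erlotinib, near the 75.1% of protein-coding genes. The 5 clients with reads are listed as a description only. STAT3 had 5122 counts in erlotinib replicate 3, VHL had 1 in replicate 2 and 911 in replicate 3, TUBG1 had 178 in replicate 1, and TUBA1B had 88 and TUBB4B 1 in replicate 2. Of the 17 clients tested 7 were depleted, against 69.2% of all genes and microRNAs. The median gene level in DMSO was 34.9 CPM for clients, 31.3 CPM for prefoldin, 56.0 CPM for phosducin-like proteins and 22.9 CPM for other chaperonins, each above the 10.1 CPM of the obligate subunits. Over the 4 lists 0 genes were called enriched, and among those with a positive log2 fold change the smallest unadjusted p was 0.196 in edgeR, for TUBG1.

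Over the whole series the total counts were 1574743 to 4263494 per DMSO library and 1773235 to 3332895 per erlotinib library. Of all listed sgRNAs 33.6 to 39.3% had a count in a DMSO library and 1.78 to 2.07% in an erlotinib library, so that at like totals the erlotinib reads fell on far fewer sgRNAs. Between DMSO libraries the correlation of log2 counts across sgRNAs was 0.119 to 0.125, a description over sgRNAs that share libraries. The part of this narrowing in the chaperonin values was not tested.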

How the data were processed

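The data are whole-number counts of sgRNA reads, which the authors deposited as 1 table of 107237 sgRNAs by 6 libraries, with no normalization or filter on low counts visible in it. The counting program and mismatch allowance are not given in the sources used here. Conditions and replicate numbers came from the labels. Some label fields name RNA, and the design text names xenografts and mouse cells, whereas the protocol text describes the screen. No genome of a named build was used, so sgRNAs have no coordinates.

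Non-targeting sgRNAs (993) were removed and sgRNAs with at least 1 count were kept. The study's filter drops counts lower than a library's median in at least 2 libraries. Each median was 0, so as worded it drops no sgRNA, and a stricter reading was an alternative. Counts were normalized by upper quartile at 0.99, as in the study's methods. Quasi-likelihood tests (edgeR 4.0.16, limma 3.58.1, R 4.3.3) compared erlotinib with DMSO per sgRNA and on counts summed per gene, with Benjamini-Hochberg adjustment over all features and a threshold of 0.05. Likelihood ratio tests and DESeq2 1.42.0 were alternatives, beside other scalings, filters, a replicate block and leaving out each library. CPM used library totals of 1574743 to 4263494 counts, at which a floor of 3 counts is 0.704 to 1.91 CPM. Shares have Wilson intervals at 95%, covering counting error only. Shares and ratios were tested by exact permutation over libraries. Shares, levels and figures were computed with scipy 1.17.1, pandas 2.3.3, numpy 2.4.6 and matplotlib 3.10.9 under Python 3.11.15. The fits were also run on simulated counts, with less spread between libraries (dispersion) than these data had. The dispersion here was 9.74 per sgRNA and 3.10 per gene, so that run does not show how the fits perform on these data.

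All members were named, and up to 4 genes per cofactor or client list with the most and the fewest sgRNAs found in DMSO, to which the erlotinib counts of HSPD1 and of the clients were added after they were seen. Comparison classes were protein-coding symbols, olfactory receptors and cytosolic ribosomal proteins, the receptors and ribosomal proteins by the start of the symbol alone. Members and lists were chosen with earlier results of these data known.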

Additional observations from a re-analysis of the deposited data

How the results depend on the processing

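Of the sgRNA-level calls over the members, 0 in the reported fit, the count was 1 with edgeR's filterByExpr, which left 1 member sgRNA to test, 1 where 2 libraries had to exceed their median count, 3 with DESeq2's Wald test and 0 to 3 when a library was left out (3 without DMSO replicate 2, 1 without DMSO replicate 3, 0 without each of the others). Over all sgRNAs the depleted calls were 0 in the reported fit, 5714 with filterByExpr, 22516 with the median filter, 13156 with the Wald test, 12186 without DMSO replicate 2 and 14276 without DMSO replicate 3. Of the gene-level calls, 3 in the reported fit, the count was 6 with the likelihood ratio test, 2 with filterByExpr and with the median filter, which each left 2 members (CCT5 and CCT6B) to test, and 2 to 4 when a library was left out. Without DMSO replicate 1 it stayed 3, with TCP1 in place of CCT6A. With the replicate block it was 0, with a smallest adjusted p of 0.173 over the members and 0 calls over all genes, against 14113 without it and 8040 with the median filter. Same-numbered libraries share a Fwd tag in the column names, which may be a forward primer. They had correlations of -0.0033 to 0.0041 between their deviations across conditions. Few sgRNAs had a count after erlotinib, so these correlations cannot decide whether the numbers pair the libraries. The reported fit did not pair them. The CPM per listed sgRNA of the obligate subunits, 5.48, was 8.80 with upper-quartile library sizes, 1.39 without the most abundant sgRNA of each gene, 0 as a median over sgRNAs, and 3.25 without CCT5 sgRNA 3, which was added after the data were seen. For CCT6B the median was 1.13. At most 2 sgRNAs were listed for 2 obligate subunits (25%) and at most 4 for 6 (75%), limits also added after the data were seen. The share of obligate sgRNAs found in DMSO, 21.0%, was 18.5% at a minimum of 3 or of 10 counts and 21.0% after thinning to the smallest library. In each case the cause was not tested. The members' log2 fold changes could not reverse in sign under any setting, since all of their erlotinib counts were 0. Their shared direction is therefore no evidence that the results are stable. Depth limits each zero to 3 counts.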
